A study of Mus musculus with 6 samples.

Results

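Gene expression in embryoid bodies of J1 mouse embryonic stem cells was compared between a Noggin-treated and a mock-treated sample at day 2. The comparison is the log2 level on the Noggin day 2 array minus the log2 level on the mock day 2 array. Its members were the probes that had 1 gene symbol and lay above the array median on both arrays, 10154 of the 27495 probes measured, for 7652 of the 13165 genes with such a probe. The series holds 6 one-colour bead arrays of total RNA, 1 each for Noggin and mock at days 0, 2 and 4, and its labels state that the aim was to find how Noggin brings about cardiac differentiation. In the Noggin samples, 150 ng/ml of Noggin was in the medium for 3 days before embryoid bodies were made by moving the cells, without Lif, to uncoated dishes, and it was taken out on the second day of embryoid body culture. The Noggin day 2 embryoid bodies were therefore sampled at about the time the protein was removed. The mock day 2 embryoid bodies went through the same aggregation and the same loss of Lif. The treatment field of every sample, mock included, names a Noggin treatment, so the groups were taken from the source field. Whether the day 0 Noggin sample was taken before or after the 3 days is not settled by the labels. With 1 array per group, and no word in the labels on separate cultures, no difference has a replicate check and none carries a p-value.

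Noggin is a secreted protein that binds bone morphogenetic proteins (BMPs) and keeps them from their receptors. BMP receptors phosphorylate Smad1 and Smad5, which enter the nucleus with Smad4 and switch on target genes such as those of the Id family. In mouse embryonic stem cells, BMP and leukaemia inhibitory factor (Lif, which acts through Stat3) together hold the cells in the naive pluripotent state, and a group of transcription factors that includes Klf2, Klf4, Klf5, Esrrb, Tfcp2l1 and Tbx3 keeps that state. When Lif is withdrawn and embryoid bodies form, the cells pass through a primed, epiblast-like state that still has Pou5f1 and Sox2, and then form germ layers. Etv2, a factor of the ETS family, is needed for the first blood and endothelial cells.

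The promoters of genes at both ends of the comparison are shown because the lower end held several naive pluripotency factors and the upper end held Etv2. They run from 250 bases before to 50 bases after the annotated start, 5′ to 3′ on the gene's strand, and come from RefSeq on GRCm38.p6. Capitals mark CCACCC (the CACCC box) or CCGCCC (the GC box), which Klf and Sp factors are known to bind, or GGCGCC (a core of BMP-responsive Smad elements), each on either strand. The positions are chr1:118627695-118627994 on the plus strand for Tfcp2l1, chr8:72318812-72319111 on the plus strand for Klf2, chr8:43306960-43307259 on the minus strand for Zfp42 and chr7:30635803-30636102 on the minus strand for Etv2.
Tfcp2l1: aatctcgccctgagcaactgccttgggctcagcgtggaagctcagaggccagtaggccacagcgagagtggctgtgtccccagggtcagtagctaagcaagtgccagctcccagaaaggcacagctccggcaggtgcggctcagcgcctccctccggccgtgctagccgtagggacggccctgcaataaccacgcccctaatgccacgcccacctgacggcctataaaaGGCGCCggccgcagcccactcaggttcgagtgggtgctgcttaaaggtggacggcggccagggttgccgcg
Klf2: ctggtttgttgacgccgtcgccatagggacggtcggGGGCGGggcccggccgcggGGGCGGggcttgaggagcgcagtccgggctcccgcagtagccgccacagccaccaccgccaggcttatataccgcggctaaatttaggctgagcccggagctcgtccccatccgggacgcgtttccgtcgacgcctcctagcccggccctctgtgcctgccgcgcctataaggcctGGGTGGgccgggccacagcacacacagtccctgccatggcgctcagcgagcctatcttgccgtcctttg
Zfp42: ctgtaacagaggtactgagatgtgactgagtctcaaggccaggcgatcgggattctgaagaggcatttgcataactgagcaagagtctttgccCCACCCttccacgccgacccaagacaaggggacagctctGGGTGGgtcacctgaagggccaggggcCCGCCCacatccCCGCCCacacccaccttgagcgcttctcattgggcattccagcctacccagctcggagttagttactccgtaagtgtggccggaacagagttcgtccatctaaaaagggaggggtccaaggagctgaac
Etv2: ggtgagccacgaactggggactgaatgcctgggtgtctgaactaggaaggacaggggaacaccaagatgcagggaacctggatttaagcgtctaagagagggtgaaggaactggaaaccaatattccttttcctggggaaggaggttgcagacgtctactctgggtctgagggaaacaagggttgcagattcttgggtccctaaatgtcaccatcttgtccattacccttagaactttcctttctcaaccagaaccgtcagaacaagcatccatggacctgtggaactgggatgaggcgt

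Klf2 had 1 CCACCC and 2 CCGCCC matches, Zfp42 had 2 of each, Tfcp2l1 had 1 GGCGCC match, and Etv2 had none of these letters in this window. For these counts a lower or higher gene had at least 1 member probe past 0.5 in that direction (below). There were 37 lower and 18 higher genes, with Prrc2c in both, and only those with a promoter sequence were counted. Over both strands, CCACCC was found in 56% of the 25 promoters of lower genes and 37.5% of the 16 promoters of higher genes. It was found in 36.8% of the 6310 promoters of all member genes and 30.9% of 27025 promoters. CCGCCC was found in 80%, 62.5%, 67.2% and 35.9% of the same sets. GGCGCC was found in 40%, 12.5%, 22.3% and 12% of them. The Stat motif TTCNNNGAA was found in 8%, 18.8%, 6.53% and 8.47%. No marked matches shared a base in the promoters printed, and a match is a string of letters, not a measured binding site.

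All 4 genes chosen as markers of the comparison were members: Klf5, Tfcp2l1 and Ddx6 were lower and Etv2 was higher on the Noggin array. The markers of the labelled cells were present, with Pou5f1, Sox2, Nanog, Esrrb and Zfp42 all above the median of both day 2 arrays. Of other cell types, 3 of 4 blood and endothelial markers with a probe, 2 of 4 fibroblast, 2 of 3 trophoblast and 1 of 4 endoderm markers were members, while 0 of 2 neural and 0 of 3 cardiac markers were. The median signal before normalisation was 176.55 on the Noggin day 2 array and 165 on the mock day 2 array, and ranged from 152 to 169.4 on the other arrays. The lowest signals were 91.4 to 101.4, and no background was subtracted, so differences of dim probes are smaller than the change in RNA.

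The difference between Noggin and mock at day 2 was small for most probes and lay between the day 0 and the day 4 difference in size. The 10154 probes had a median log2 difference of -0.01 and an SD of 0.154, and 81.9% of them lay within 0.2 of 0. The same probes had an SD of 0.0952 between Noggin and mock at day 0 and of 0.316 at day 4. The filter used the day 2 arrays only, so genes that were dim at day 2 are missing from the day 0 and day 4 values. One of them is the protease gene Mmp3, higher with Noggin at day 0 by 0.84 and 0.88 at its probes. The extremes at day 2 were -1.24 and 0.72, and the central 99% lay between the percentiles at -0.46 and 0.42. A size of 0.5 on the log2 scale (1.41-fold) was used to count differences. On the Noggin array 20 probes were higher by at least that much, 0.197% of members, and 38 were lower, 0.374% of members. Noggin and mock at day 0 differed by as much at 1 probe in each direction, 0.00985%, and at day 4 at 355 probes higher (3.5%) and 481 lower (4.74%). One probe, for Ddx6, was lower by at least 1 (2-fold), 0.00985% of members, and 0 probes (0%) were higher by as much. Of all members 46.7% were above 0 and 50.4% below. The split between higher and lower depended on how the arrays were scaled: with median scaling in place of the authors' quantile normalisation, 81 probes were higher and 21 lower, 79.4% higher against 34.5% in the deposited values, and the median of all members was 0.064. With normexp background correction 47 were higher and 80 lower. With the members in 5 groups by level, of about equal size, the SD at day 2 was 0.105 in the dimmest group and 0.182 in the fourth, where 9 of the 20 higher and 17 of the 38 lower probes lay. At day 0 it was 0.1 and 0.093 in the same groups.

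**Figure D1:**
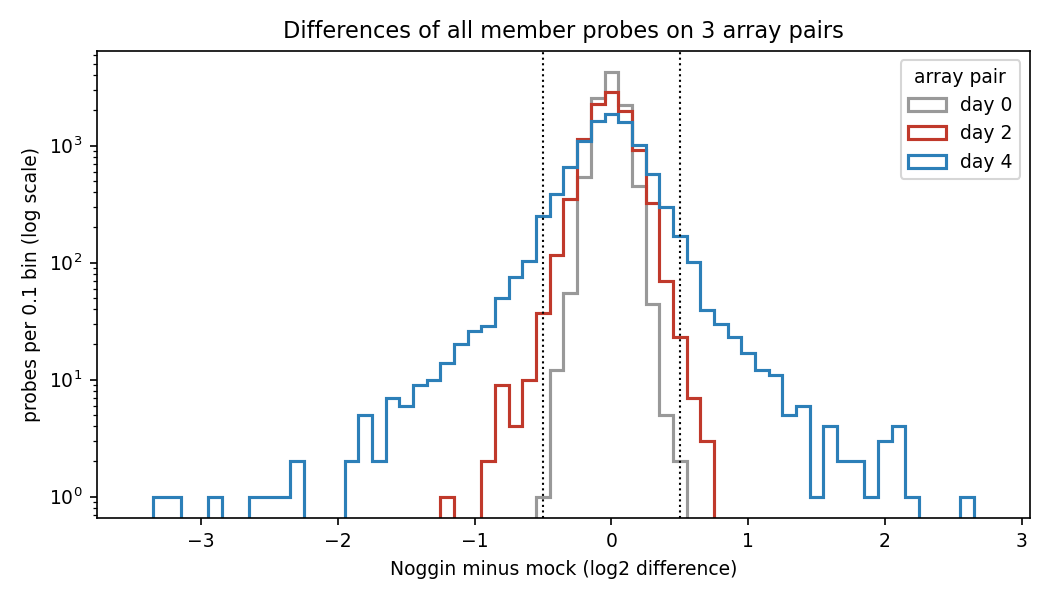
Number of member probes (log axis) in bins of 0.1 of the log2 difference, Noggin minus mock, for the array pairs of day 0, day 2 and day 4, over the same 10154 probes. The day 2 curve is wider than the day 0 curve and narrower than the day 4 curve, with SDs of 0.154, 0.0952 and 0.316; dotted lines mark 0.5 in each direction.

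The naive pluripotency genes were lower on the Noggin day 2 array as a group. Of the 20 genes of this list with a probe, 17 were members, and 15 of these were lower and 2 higher, with a median difference of -0.42. With median scaling 15 of the 17 were lower as well, and above the 75th percentile of both arrays the median was -0.65, over 11 genes. Over all 7652 member genes, each at its brightest probe, 52.3% were lower and 44.9% higher, with a median of -0.01. By at least 0.5, 7 of the 17 were lower and 0 higher, against 0.444% of all member genes lower (34 genes) and 0.183% higher (14 genes). The list was chosen with earlier results of these data known and holds the markers Klf5 and Tfcp2l1, so this contrast is a description only. The summed linear level of the 20 genes was 9450 on the Noggin day 2 array and 14064 on the mock day 2 array, after 53428 and 52898 on the Noggin and mock arrays of day 0. All 17 members were lower on the Noggin day 2 array than on either day 0 array, and so were 16 on the mock day 2 array. The median change from the mean of the day 0 arrays was -2.14 on the Noggin day 2 array and -1.76 on the mock day 2 array. In bulk RNA, fewer cells of a type and less RNA per cell cannot be told apart.

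Klf5, a zinc-finger factor of the naive network, had the lowest difference of the list. Its log2 level was 12.31 on the Noggin and 12.44 on the mock array at day 0, 9.10 and 10.03 at day 2, then 9.80 and 10.96 at day 4. The Noggin day 2 array held the lowest of its 6 levels, and the day 2 difference was -0.93 (1.91-fold lower). Its other probes were dim and no members, at 7.20 and 7.13 on the Noggin day 2 array, with differences of -0.10 and 0.08.

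Tfcp2l1, a factor downstream of Stat3, had log2 levels of 13.47 on the Noggin and 13.36 on the mock array at day 0, 9.62 and 10.44 at day 2, then 8.57 and 10.86 at day 4. Noggin and mock were within 0.11 of each other at day 0, and Noggin was lower by 0.82 at day 2 (1.77-fold) and by more at day 4. Esrrb, an orphan nuclear receptor that sustains self-renewal, stood at 13.12 and 13.16 at day 0, 10.41 and 11.19 at day 2, then 7.88 and 11.06 at day 4, Noggin before mock on each day. Its differences were -0.04 at day 0, -0.78 at day 2 and -3.18 at day 4.

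Klf2, a Klf factor that acts with Klf4 and Klf5, had log2 levels of 11.87 on the Noggin and 11.84 on the mock array at day 0, 10.08 and 10.84 at day 2, then 8.15 and 10.46 at day 4. Zfp42 (Rex1), a widely used marker of naive cells, had 12.30 and 12.26 at day 0, 9.94 and 10.59 at day 2, then 7.99 and 10.87 at day 4. Both genes thus differed by 0.04 or less in size before embryoid bodies formed, by -0.76 and -0.65 at day 2, and by more than 2 at day 4. Jam2, a junctional adhesion molecule, had member probes that pointed the same way. Its brighter probe was at 8.61 on the Noggin and 9.39 on the mock day 2 array (-0.78) and its dimmer one at 7.58 and 7.98 (-0.40).

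Tbx3, a T-box factor that is both a naive factor and a BMP target, differed in direction between the days. Its log2 level was 11.15 on the Noggin and 11.12 on the mock array at day 0, 7.71 and 8.26 at day 2, then 10.38 and 8.27 at day 4. The Noggin day 2 level was the lowest of the 6, with a difference of -0.55, while at day 4 the Noggin array was higher by 2.11. The mock levels of day 2 and day 4 were nearly equal. Another Tbx3 probe, dim and no member, was at 7.08 on the Noggin and 7.17 on the mock day 2 array (-0.09).

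The other members of the naive list fell between -0.48 and 0.21. Klf4 was at 7.48 on the Noggin and 7.96 on the mock day 2 array (-0.48), after 11.94 and 11.88 at day 0, so both day 2 levels were near the array median of 7.37. Gbx2, a homeobox gene, differed by -0.42, the lysosomal enzyme gene Manba by -0.37, the nuclear receptor gene Nr5a2 by -0.34 and Stat3 by -0.31, with -0.28 at its dimmer member probe. Pecam1 differed by -0.28, Socs3, the feedback inhibitor of Stat3 signalling, by -0.24, and Fgf4 by -0.13. Nr0b1 was level at 0.01. Mybl2, a cell cycle factor, was the highest at 0.21, but its other member probe was at -0.18. Dppa3, Prdm14 and Tcl1 were not members, with differences of -0.21, -0.34 and -0.14 at levels below the median on at least 1 array.

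The Lif and Stat3 list held some of the same genes, with 9 of 13 probed genes as members, 6 lower, 2 higher and a median of -0.24, or -0.14 over all 13 with no filter. Apart from Tfcp2l1, Klf4, Stat3 and Socs3, it held Pim3, a kinase gene induced by Stat3, at 9.75 on the Noggin and 10.22 on the mock day 2 array (-0.47). The phosphatase gene Ptpn11 differed by -0.11, the kinase gene Jak1 by 0.00, the feedback gene Cish by 0.05 and Spry1 by 0.07. By at least 0.5, 1 of the 9 was lower, against 0.444% of all member genes. With normexp 3 of the 9 were, but lower probes among all members also rose, from 38 of 10154 to 80 of 10259. Above the 75th percentile of both arrays, 3 of its genes were left, with a median of -0.47.

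**Figure D2:**
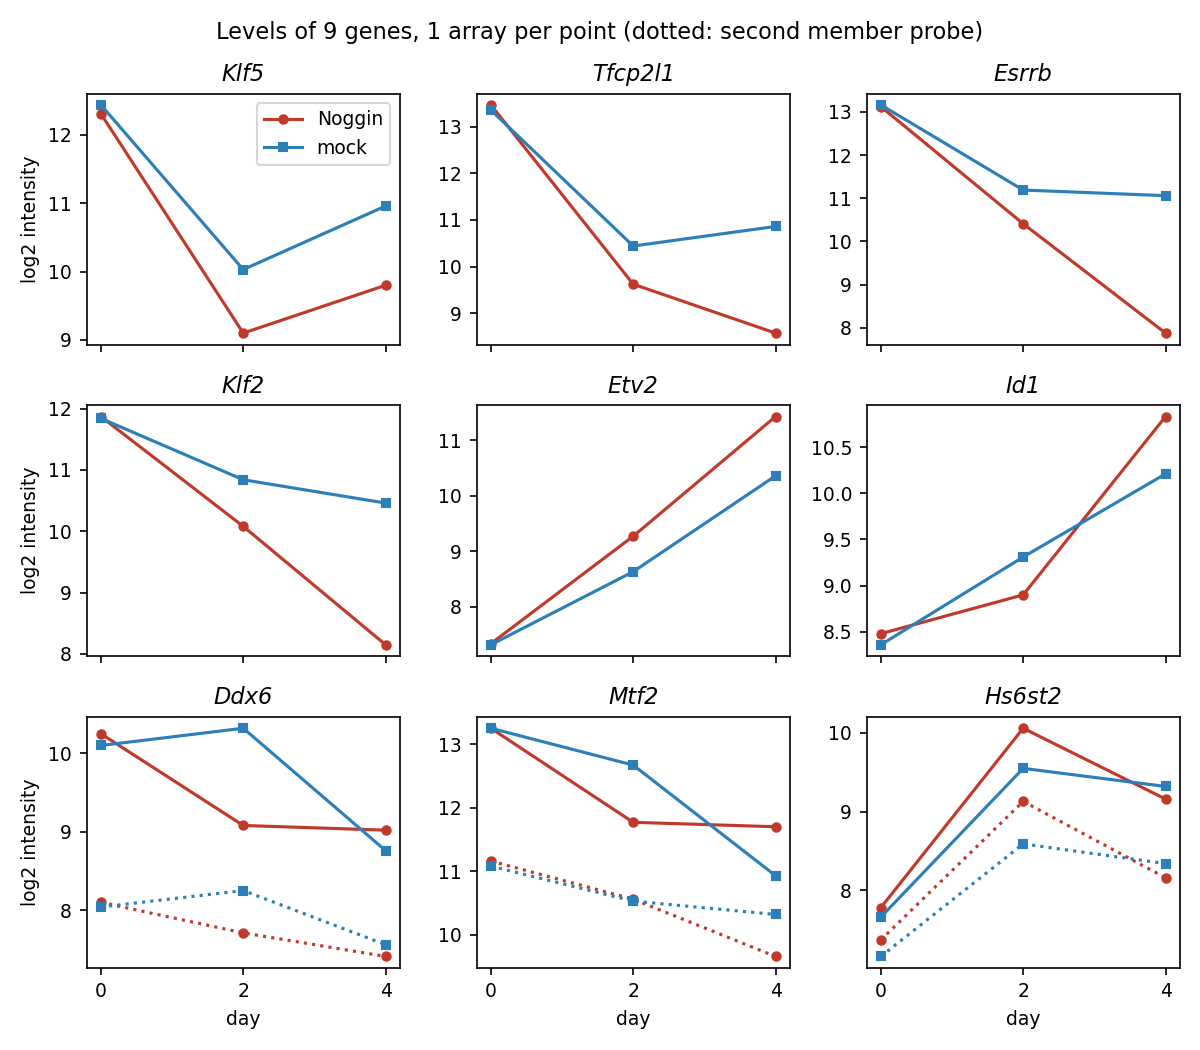
Log2 level of 9 genes on the 6 arrays, by day, with 1 array per point, Noggin in red circles and mock in blue squares; dotted lines show the second member probe of a gene. Klf5, Tfcp2l1, Esrrb and Klf2 start level at day 0 and are lower with Noggin at day 2, Etv2 is higher, and the probes of Ddx6 and Hs6st2 each point the same way while those of Mtf2 differ at day 2.

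The core pluripotency genes, which naive and primed cells share, differed less. All 14 with a probe were members, 10 lower, 3 higher and 1 level, with a median of -0.085 and 0 past 0.5 in either direction. Pou5f1 was at 10.94 on the Noggin and 11.18 on the mock day 2 array at its first probe and at 10.96 and 11.14 at the other, differences of -0.24 and -0.18. Sox2 was at 11.31 and 11.32 at its brighter probe (-0.01) and at 8.56 and 9.02 at its dimmer one (-0.46). Nanog had differences of 0.03, -0.28 and -0.10 at 3 member probes. The extremes were Trim28, a co-repressor of transposable elements, at -0.44 and Lin28a, an RNA-binding inhibitor of let-7, at 0.33. With median scaling, the median of the core list was 0.07 and so turned its sign.

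Genes of the primed epiblast showed no common direction, with 7 of 13 members higher, 6 lower and a median of 0.02. Fgf5, the classical marker of this state, was at 9.92 on the Noggin and 9.70 on the mock day 2 array, after 7.91 and 7.92 at day 0. Both day 2 arrays were far above day 0, and they differed by 0.22. Dnmt3b, a de novo DNA methyltransferase, was at 14.37 and 14.12 (0.25), but its dimmer member probe was at -0.03. Otx2 and Pou3f1, factors of the primed state, differed by -0.06 and -0.15. The extremes were Tead2, an effector of Hippo signalling, at -0.25 and Sox4 at 0.30, whose dimmer member probe was at -0.08.

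The BMP target genes that could be measured were lower on the Noggin day 2 array. Of 13 with a probe, 6 were members and all 6 were lower, against 52.3% of all member genes, with a median of -0.225 and 1 past 0.5, Tbx3. With so few genes the median moved easily. It was -0.12 over 7 members in the quantile-normalised array tables and -0.18 over 7 with normexp, all lower in both. With no filter on dim probes 9 of the 13 were lower and 4 higher, with a median of -0.08, and with median scaling 6 of 7 members were lower, with a median of -0.1 and Id2 at 0.02. Id1, an inhibitor of basic helix-loop-helix factors, had log2 levels of 8.48 on the Noggin and 8.36 on the mock array at day 0, 8.90 and 9.31 at day 2, then 10.83 and 10.21 at day 4. Id3, of the same family, had 9.37 and 9.34 at day 0, 8.55 and 8.88 at day 2, then 10.03 and 9.47 at day 4. Both were lower with Noggin at day 2, by 0.41 and 0.33, and higher with Noggin at day 4, by 0.62 and 0.56. The day 2 sizes lie inside the central 99% of all members. Id2 was at 9.31 and 9.40 (-0.09), with -0.06 at its dimmer member probe. Hey1 and Dusp9 each differed by -0.12. Smad6, a feedback inhibitor of the pathway, was no member and was at 7.34 on the Noggin and 7.30 on the mock day 2 array, and Msx1, at 7.40 and 7.20, was no member either.

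The ligands, receptors and inhibitors of the BMP pathway showed 7 of 11 members higher, 4 lower and a median of 0.07. Among ligands and inhibitors, Bmp4 was at 7.59 on the Noggin and 8.04 on the mock day 2 array (-0.45), after 9.46 and 9.55 at day 0, and was at 8.97 and 7.60 at day 4. Its Noggin and mock levels were level at day 0, lower with Noggin at day 2 and higher with Noggin at day 4. Another Bmp4 probe, dim and no member, was at 6.71 on both day 2 arrays. The antagonist Chrd was at -0.23, Twsg1, a modulator of BMP and Chrd, at 0.12, and the activin-binding Fst at 0.27. The receptor genes Bmpr1a and Acvr1 were at 0.09 and 0.14 and Acvr2b at -0.20. The Smad genes of the pathway lay close to 0, with 0.14 for Smad1, 0.07 for Smad5 and 0.04 for Smad4. Nog itself is not analysed here.

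The blood and endothelial genes had the highest median of the 30 lists, 0.21, over 7 members of 20 genes with a probe. Of these, 4 were higher and 3 lower, and 1 was higher by at least 0.5. The median rests on few genes: it was 0.1 over all 20 with no filter and 0.64 above the 75th percentile of both arrays, where Etv2 alone was left. The gene past 0.5 was Etv2, with log2 levels of 7.33 on the Noggin and 7.31 on the mock array at day 0, 9.27 and 8.63 at day 2, then 11.43 and 10.36 at day 4. Both treatments were just below the array median at day 0, and the Noggin array was higher by 0.64 at day 2 (1.56-fold) and by 1.07 at day 4. Tal1, a factor of early blood cells that is known to act downstream of Etv2, was at 7.29 and 7.31 at day 0, 8.07 and 7.72 at day 2 (0.35), then 9.46 and 7.86 at day 4 (1.60). Its partner Lmo2 was at 7.70 on the Noggin and 7.48 on the mock day 2 array (0.22), and the receptor gene Flt1 at 7.98 and 7.77 (0.21), though both of its day 2 levels were below those of day 0. Hhex and Egfl7 each differed by -0.14. Pecam1, which naive stem cells also express, was at -0.28. The summed linear level of the 20 genes was 3998 on the Noggin day 2 array and 3639 on the mock day 2 array.

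**Figure D3:**
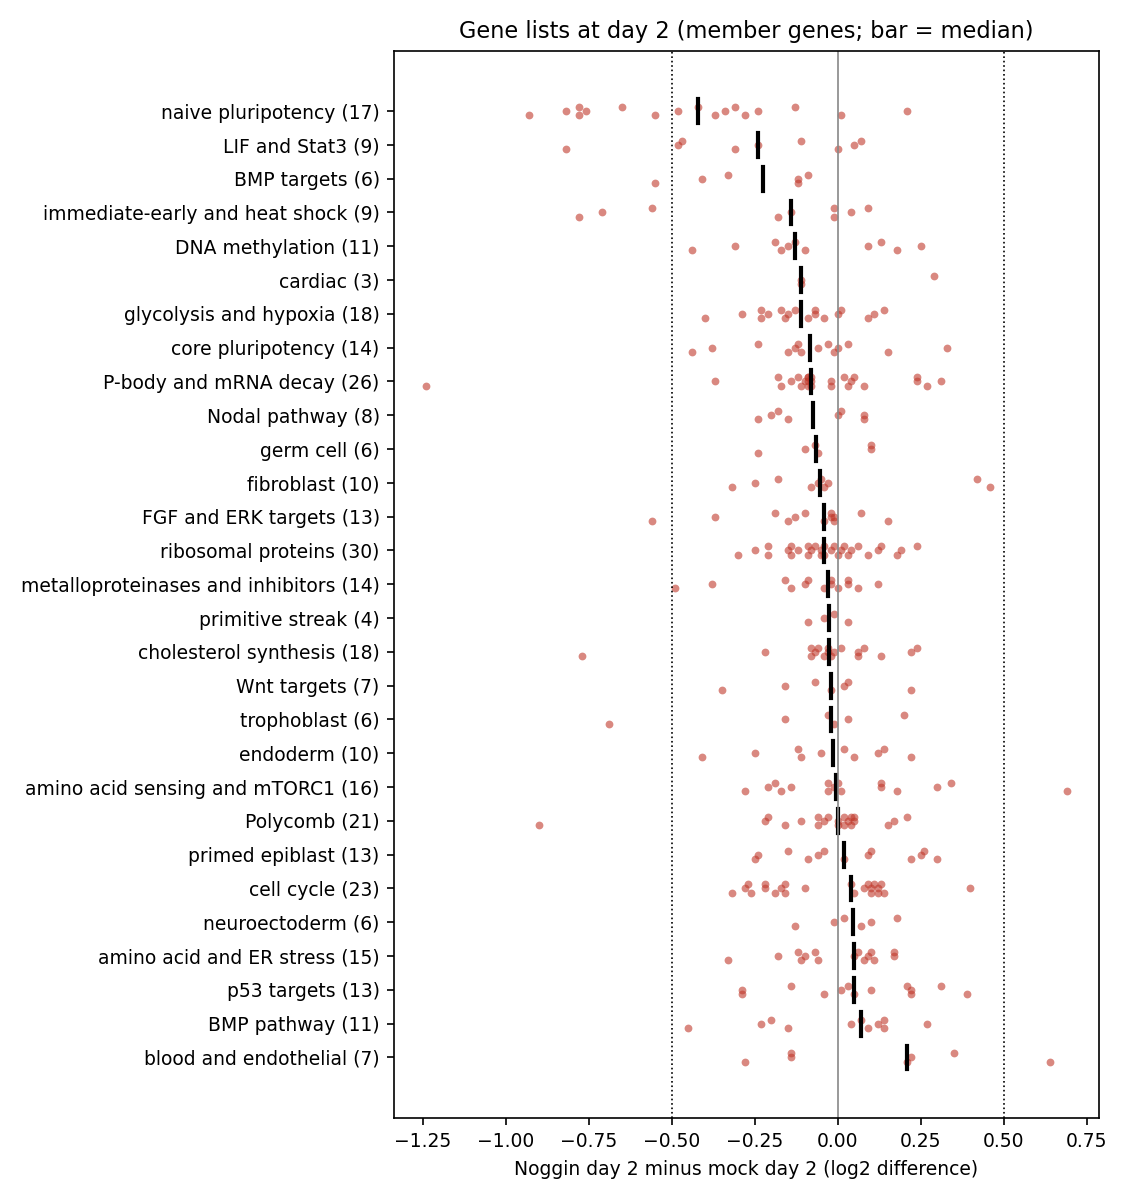
Day 2 log2 difference, Noggin minus mock, of each member gene (points, brightest probe) of the gene lists with at least 3 members, ordered by the list's median (bars), with the number of members in brackets. The naive pluripotency list lies lowest with a median of -0.42 and the blood and endothelial list highest with 0.21; dotted lines mark 0.5 in each direction.

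The single largest difference was that of Ddx6, an RNA helicase of P-bodies that represses translation and takes part in mRNA decay. Its brighter probe had log2 levels of 10.25 on the Noggin and 10.10 on the mock array at day 0, 9.08 and 10.32 at day 2, then 9.02 and 8.76 at day 4. The mock day 2 level was the highest of the 6, and the Noggin day 2 level was close to the levels of day 4. The difference of -1.24 (2.36-fold lower) ranked lowest of 10154. The dimmer probe was at 8.10 and 8.04, 7.71 and 8.25, and 7.41 and 7.56 on the same days, with a difference of -0.54 at day 2. The 26 members of the P-body and mRNA decay list, of 28 with a probe, did not share a shift of that size, with a median of -0.08, 17 lower and 9 higher. Patl1, a partner of Ddx6 in decapping, was at -0.37, the scaffold genes Edc3, Edc4 and Eif4enif1 were at -0.09, -0.02 and -0.10, and Lsm14a, another partner, was at 0.24. Cnot1, the scaffold of the deadenylase complex, was highest at 0.31, with 0.08 at its other member probe. With median scaling the list's median was 0.039.

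Mtf2, a Polycomb-like protein that brings the PRC2 complex to CpG islands, gave probes that disagreed. The brighter one had log2 levels of 13.25 on both day 0 arrays, 11.77 on the Noggin and 12.67 on the mock array at day 2, then 11.70 and 10.93 at day 4. The dimmer one was at 10.56 and 10.53 at day 2 and at 9.66 and 10.32 at day 4. The differences were thus -0.90 and 0.03 at day 2, then 0.77 and -0.66 at day 4, so a level of the gene as a whole cannot be given a direction from these probes. Of the other PRC2 genes, Ezh2 was at 0.03, Eed at -0.06 and Jarid2, another accessory subunit, at -0.21. Over the Polycomb list 21 of 26 probed genes were members, 10 higher and 9 lower, with a median of 0.

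The other genes among the 15 lowest fell into those that were already lower on both day 2 arrays than at day 0 and those that were not. Laptm5, a lysosomal membrane protein known from blood cells, was at 9.69 on the Noggin and 10.46 on the mock day 2 array (-0.77), after 12.96 and 13.00 at day 0. Lgals3, the gene of galectin-3, was at 8.97 and 9.73 (-0.76), after 11.76 and 11.87. Tfap2c, a factor of trophoblast and germ cells that stem cells also express, was at 8.74 and 9.43 (-0.69), after 11.87 and 11.88. Each of these was lower by more than 2 on both day 2 arrays than on the day 0 arrays, and lower still with Noggin. Hspb1, a small heat shock protein, was at 11.11 on the Noggin and 11.82 on the mock day 2 array (-0.71), and Klf3, a repressor of the Klf family, at 9.32 and 9.98 (-0.66) with -0.18 at its other member probe.

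For other genes the mock day 2 array stood above day 0 instead. Bst2, an interferon-inducible membrane protein, was at 9.73 on the Noggin and 10.54 on the mock day 2 array (-0.81), with 9.75 and 9.99 at day 0 and 9.84 and 10.15 at day 4. Acat3, an acetyl-CoA acetyltransferase gene, was at 7.58 and 8.35 (-0.77), with 7.55 and 7.80 at day 0 and 8.30 and 7.72 at day 4. For both, the mock day 2 level was the highest of the 6, and the Noggin day 2 level was near day 0. Hmox1, haem oxygenase 1, was at 9.36 on the Noggin and 10.14 on the mock day 2 array (-0.78), with 10.16 and 10.09 at day 0, so mock was level with day 0 and Noggin was not. Over all 38 lower probes, both day 2 arrays lay below both day 0 arrays at 28, and the mock day 2 array lay above both day 0 arrays at 8. The Noggin day 2 array was the lowest of the 6 at 13 of them, and the mock day 2 array was the highest at 7, as a description only, since the day 2 values chose these probes.

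Of the higher genes, Zfp97, a zinc-finger gene, led with 9.09 on the Noggin and 8.37 on the mock day 2 array (0.72), against 8.53 and 8.41 at day 0 and 8.11 and 8.83 at day 4. Rraga, the gene of a Rag GTPase that brings mTORC1 to the lysosome, was at 9.75 and 9.06 at day 2 (0.69), with 9.60 and 9.55 at day 0 and 9.18 and 9.88 at day 4. Both changed sides between days 2 and 4, and for Rraga the mock day 2 array held the lowest of the 6 levels. Its paralogue Rragb was at 9.64 and 9.30 (0.34), and Rragc and Rragd were at 0.01 and -0.03. The list of amino acid sensing and mTORC1 genes had 7 of 16 members higher and 8 lower, with a median of -0.005. With median scaling 12 of 17 were higher and 5 lower, with a median of 0.11, but that scaling raised the median of all members too, to 0.064.

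Hs6st2, a heparan sulphate 6-O-sulphotransferase, was the only gene besides Ddx6 with at least 2 member probes that were all past 0.5 in the same direction. Its brighter probe was at 7.78 on the Noggin and 7.66 on the mock array at day 0, 10.06 and 9.55 at day 2, then 9.16 and 9.32 at day 4. The dimmer member probe was at 9.13 and 8.59 on the day 2 arrays. The differences were 0.51 and 0.54, and another probe below the filter was at 0.27. Both treatments were above day 0 by more than 1 at each member probe, with the Noggin day 2 array the highest of the 6 for both.

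Ube4a, a ubiquitin ligase gene, was at 8.64 on the Noggin and 7.99 on the mock day 2 array (0.65) with 0.11 at its dimmer probe. Taf15, an RNA-binding protein of the FET family, was at 9.15 and 8.55 (0.60), and Vcan, the extracellular matrix proteoglycan versican, at 8.35 and 7.78 (0.57). Vcan was also higher with Noggin at day 4, at 8.09 against 7.59. Zfp445, a zinc-finger gene that guards imprinting, was at 9.39 on the Noggin and 8.83 on the mock day 2 array (0.56), and Emd, the gene of the nuclear envelope protein emerin, at 8.99 and 8.44 (0.55) with 0.39 at its other probe. The condensin subunit genes Smc4 and Ncapg were at 0.56 and 0.50 at their brightest probes. Their other member probes were at 0.15 and -0.07 for Smc4 and at -0.23 for Ncapg. Also among the 15 highest was Gng10, a G protein subunit gene (0.54, with 0.18 at the other member probe). Kdm7a, a histone demethylase gene, was at 0.53, with -0.11 at the other member probe. The remaining genes were Rem2, a small GTPase gene (0.50), and Thoc2, an mRNA export gene (0.49). Prrc2c, named after its values were seen, had member probes at -0.15, -0.51, 0.72 and 0.61, from the brightest to the dimmest. All 20 higher probes were above both day 0 arrays on the Noggin day 2 array, and 12 of them were on the mock day 2 array too. The Noggin day 2 array was the highest of the 6 at 12 of the 20, which the day 2 values had chosen.

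Probes for the same gene agreed in part. Of the 1946 genes with at least 2 member probes, the brightest and the next probe had the same sign in 1151 of the 1826 where neither was 0 (63%), and their differences correlated across genes with r = 0.415. These pairs share both arrays and the scaling, and genes are not independent replicates. The disagreement of the pairs corresponds to an SD of 0.117 for 1 probe, against the SD of 0.154 over all members. Where the brighter probe differed by at least 0.3, the next had the same sign in 116 of 141 genes (82.3%), with a median of 0.12 in that direction against 0.34 at the brighter. Where it differed by at least 0.5, the next had the same sign in 9 of 13 genes and was past 0.5 in 2, Ddx6 and Hs6st2. The 4 with opposite signs were Mtf2, Ncapg, Kdm7a and Lasp1, the last at -0.52 and 0.06. For 5706 member genes only 1 probe was a member, and these include Klf5, Tfcp2l1, Esrrb, Klf2, Zfp42 and Etv2, so no second member probe checks them.

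**Figure D4:**
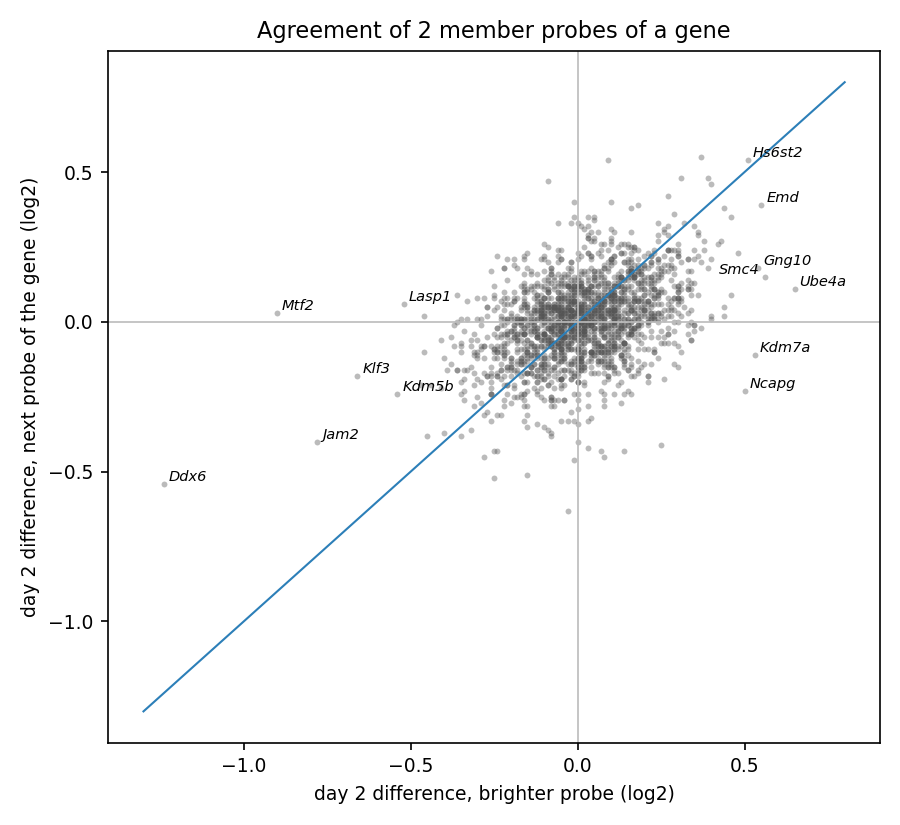
Day 2 log2 difference of the brighter (x) and the next brightest (y) member probe of each of 1946 genes, with the line of equality. Most genes lie near 0, r is 0.415, and of the labelled genes with a brighter probe past 0.5, Ddx6 and Hs6st2 are past 0.5 at both probes while Mtf2 is near 0 at the other.

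Members that were lower at day 4 than at day 0 in mock cells tended to be lower with Noggin at day 2 as well, and members that were higher at day 4 tended to be higher. The mock arrays of days 0 and 4 share no array with the day 2 comparison. The 31 probes that were lower by 2 or more on the mock day 4 than on the mock day 0 array had a median day 2 difference of -0.35, and 80.6% of them were below 0, against 50.4% of all members. The 242 probes lower by 1 to 2 had a median of -0.165, and the 7831 within 0.5 had one of -0.01. On the other side, the 244 probes higher by 1 to 2 had a median of 0.13 and the 34 higher by 2 or more one of 0.14. Along the Noggin arrays of days 0 and 4 the medians ran from -0.245 in 96 probes to 0.11 in 79. Across the 10154 members, the day 2 difference correlated with the mock change at r = 0.364 and with the Noggin change at r = 0.227, as a description of arrays that share scaling and genes. Of the 38 lower probes, 22 were lower by 1 or more on mock day 4 than on mock day 0, 57.9% against 2.69% of all members, and of the 20 higher probes 6 were higher by 1 or more, 30% against 2.74%.

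**Figure D5:**
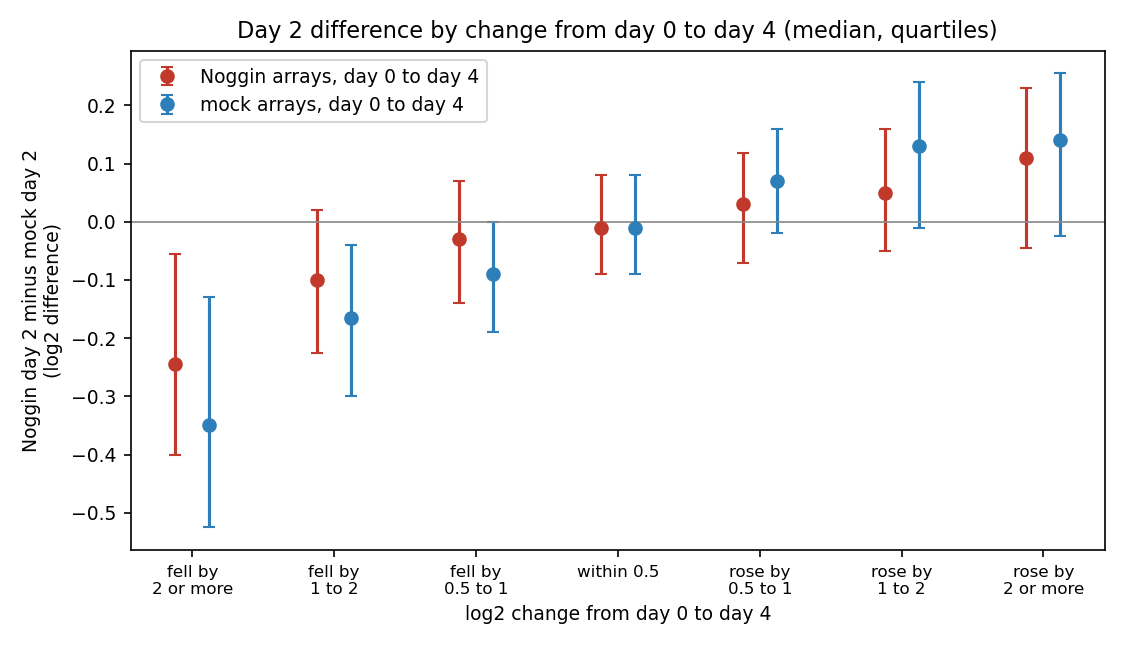
Median day 2 log2 difference, Noggin minus mock (points, with bars from the lower to the upper quartile), of member probes grouped by their log2 change from day 0 to day 4 on the Noggin arrays (red) and on the mock arrays (blue). The medians on the mock arrays run from -0.35 in the group at least 2 lower at day 4 to 0.14 in the group at least 2 higher.

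The day 2 difference carried little of either neighbouring day's difference across all members. Its r was 0.199 with the day 0 difference and -0.055 with the day 4 difference, over arrays that are not shared. Of the 38 lower probes, 19 were higher and 16 lower with Noggin at day 0 (47.9% and 47.6% of all members), and the SD of their day 0 differences was 0.101, against 0.0952 for all members. The 20 higher probes leaned the same way at day 0 as at day 2, with 14 higher and 5 lower (70% and 25%). Their median day 0 difference was 0.055. At day 4, 24 of the 38 were lower and 14 higher (50.6% and 47.6% of all members), with a median of -0.29, and 14 were lower by at least 0.5 (36.8%, against 4.74% of all members) and 6 higher by as much (15.8%, against 3.5%). The 14 include Klf5, Tfcp2l1, Esrrb, Jam2, Laptm5, Klf2, Lgals3, Hspb1, Tfap2c and Zfp42. Of the 20 higher probes, 16 were lower with Noggin at day 4 and 4 higher, with a median of -0.275. Past 0.5 on both days, 16 probes kept their direction and 10 changed it.

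Lists of other cell types had medians between -0.11 and 0.045 at day 2. The cardiac list had 3 members of 15 genes with a probe, Actc1 (0.29) and Gata4 (-0.11) at its ends. Nkx2-5, the cardiac homeobox gene, was no member and was at 7.28 on the Noggin and 7.29 on the mock day 2 array, both below the median. The primitive streak list had 4 members of 16 with a median of -0.025, from Tbx6 (-0.09) to Cdx2 (0.03). The neuroectoderm list had 6 of 16 with a median of 0.045, and Sox11, at its upper end, had 4 member probes at 0.18, 0.24, 0.18 and 0.35. The endoderm list had 10 of 16 with a median of -0.015, from Apoe (-0.41) to Dab2 (0.22), and the germ cell list 6 of 14 with -0.065. In the trophoblast list, 6 of 11 were members with a median of -0.02, Tfap2c at the lower and Krt7 (0.20) at the upper end. The fibroblast list, 10 of 14, had 2 members higher and 8 lower and a median of -0.055, with Acta2 at 9.57 on the Noggin and 9.11 on the mock day 2 array (0.46), the proteoglycan gene Dcn at 0.42 and 0.26 at its member probes, and Fstl1 at -0.32. Its summed level was 3914 on the Noggin and 3880 on the mock day 2 array.

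Signalling lists other than Lif and BMP had medians between -0.075 and -0.02. Nodal targets and pathway genes had a median of -0.075 over 8 members, with Nodal itself at 10.65 on the Noggin and 10.89 on the mock day 2 array (-0.24), Lefty2 at -0.18, Lefty1 at 0.08 and Smad2 at 0.08. Wnt targets had a median of -0.02 over 7, from the cyclin gene Ccnd2, at -0.35 and -0.24 at its member probes, to Sp5 at 0.22. FGF and ERK targets were lower at 11 of 13 members, but with a median of -0.04. Egr1, an immediate-early factor, was at 9.36 on the Noggin and 9.92 on the mock day 2 array (-0.56), the feedback inhibitor Spry4 was at -0.37 and Spred1 at 0.15. With median scaling the medians of the Nodal and the FGF lists were 0.032 and 0.005, and 7 of the 13 FGF and ERK targets were higher. The median of all members was 0.064 with that scaling.

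Metabolic and stress lists had medians between -0.14 and 0.05. Genes of glycolysis and hypoxia had 13 of 18 members lower and a median of -0.11, from Pfkl (-0.40) to Slc2a1 (0.14), and with median scaling the median was -0.015. Immediate-early and heat shock genes had 7 of 9 lower, against 52.3% of all member genes, and a median of -0.14. Hmox1, Hspb1 and Egr1 were lower by at least 0.5, 3 of the 9 against 0.444% of all member genes, but the median was 0.011 with median scaling. Cholesterol synthesis genes had a median of -0.025 over 18 members, with Acat3 lowest and Cyp51 at 0.24, and genes of amino acid and ER stress one of 0.05 over 15, from Chac1 (-0.33) to Psat1 (0.17). With median scaling 12 of the 18 cholesterol synthesis genes were higher and 5 lower, with a median of 0.091, and above the 75th percentile the median was 0.06 over 11 genes. The amino acid and ER stress list had 11 of 15 higher and a median of 0.178 with median scaling. That scaling also raised the median of all members, from -0.01 to 0.064, so counts of higher genes under it are not a result about a list alone. The p53 targets had 9 of 13 higher, against 44.9% of all member genes, and a median of 0.05. With median scaling 11 of the 13 were higher, with a median of 0.139. Among them Ccng1, the gene of cyclin G1, was higher at 3 member probes, at 11.89 against 11.50, 11.09 against 10.61 and 11.05 against 10.53 on the Noggin and mock day 2 arrays. Its differences were 0.39, 0.48 and 0.52, and Ei24 was lowest at -0.29.

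Of the remaining lists, cell cycle genes had a median of 0.04 over 23 members, from Plk1 (-0.32) to the sliding clamp gene Pcna, at 13.20 on the Noggin and 12.80 on the mock day 2 array (0.40), with 13.15 and 12.88 at day 0. The DNA methylation list had a median of -0.13 over 11, 7 lower and 4 higher, from Trim28 (-0.44) to Dnmt3b (0.25). Between these ends, Dnmt3l was at -0.31, Dnmt1 at -0.17 and Tet1 at 0.18. Ribosomal protein genes had a median of -0.04 over 30, which was 0.053 with median scaling. The 14 members among metalloproteinases and their inhibitors had a median of -0.03, from Mmp13, at 7.49 on the Noggin and 7.98 on the mock day 2 array (-0.49), to the inhibitor gene Reck (0.12), and Timp1, another inhibitor, was at -0.38. The 2-cell-like list had 1 member, Eif1a (0.12). Mmp3, the protease of the series title, lay just outside the filter. Its brighter day 2 probe was at 7.51 on the Noggin and 7.37 on the mock array (0.14), and the other was at 7.29 and 7.33 (-0.04), after 10.23 and 9.35 at day 0.

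The lowest level of a member was 7.38, just above the median of 7.37, and 105 members had it on 1 or both arrays. Of the 9266 probes with 1 symbol outside the filter, 1084 were above the median on 1 array. Among all 9266, 3 were higher by at least 0.5 and 0 lower: Rtf1 at 7.64 on the Noggin and 7.02 on the mock day 2 array, Tmx1 at 7.88 and 7.37, and Zfp248 at 7.49 and 6.99. By chromosome, the median of members ran from -0.04 on chromosomes 7 and 17 to 0.04 on X. Probes designed on cDNA clones had a median of 0.01 over 781 and those on curated transcripts -0.01 over 9313.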

How the data were processed

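Total RNA was extracted with Trizol, made into biotinylated cRNA and hybridised to one-colour Illumina Mouse-6 v1.0 bead arrays stained with streptavidin-Cy3, per the labels' protocols. The authors deposited 1 table of intensity per array, 27496 probes with no background subtraction, and a series matrix of 27495 probes. The matrix values equal the log2 of quantile-normalised intensity, found by comparing the deposited tables (27492 probes matched within 0.006, and all 2220 clone accessions on both sides were equal), with a median of 7.37 in each array and no centring. The sources used here name no scanner software and hold no detection values. The number of arrays, 1 per group, limits the precision.

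Day 2 differences were taken from the matrix with Python 3.11.15 and pandas 2.3.3, with no test. Symbols came from GEO's platform annotation: 19420 probes had 1 symbol, 6 several and 8069 none, and 10145 of 10154 members had their Entrez identifier in the mouse gene table of GRCm38.p6. A gene's value is that of its brightest member probe over the day 2 arrays. The members, the 30 lists (580 genes) and the thresholds were chosen with earlier results of these data known, so lists are described by counts and medians. Named by rule were the 15 highest and lowest genes, genes with all of at least 2 member probes past 0.5, each list's ends and members past 0.5, and Klf5, Tfcp2l1, Etv2, Ddx6, Mmp3, Id1, Id2, Id3, Nkx2-5 and Nog. Other list genes are given for their role and were chosen with their values seen. Alternatives were normexp (offset 50) and median scaling of the array tables with limma 3.58.1 in R 4.3.3, other filters on dim probes and the mean of a gene's probes. The counting was tested on simulated data.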

Additional observations from a re-analysis of the deposited data

Results flagged for a closer look

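Some genes differed between Noggin and mock by at least 0.5 (log2) in opposite directions at day 2 and day 4 on the same probe. There were 10 of them, and the difference between the days was not tested, since each rests on 1 array per group and day. Lower with Noggin at day 2 and higher at day 4 were Mtf2 (-0.90 and 0.77), the haem oxygenase gene Hmox1 (-0.78 and 0.64), Acat3 (-0.77 and 0.58), the T-box gene Tbx3 (-0.55 and 2.11), the planar polarity gene Vangl1 (-0.55 and 0.65) and the imprinted gene Phlda2 (-0.50 and 2.11). Phlda2 was at 10.16 on the Noggin and 10.66 on the mock day 2 array. Higher with Noggin at day 2 and lower at day 4 were Kdm7a (0.53 and -0.73), Smc4 (0.56 and -0.51), Rraga (0.69 and -0.70) and Zfp97 (0.72 and -0.72). Mtf2 and Kdm7a had a second member probe of opposite sign at day 2.

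Probes without a gene symbol, which enter no comparison, also differed at day 2. Of 8069 such probes 2626 lay above both medians. Of these 2626, 30 were at least 0.5 higher and 8 at least 0.5 lower with Noggin. Among the 10154 members, 20 were higher (0.197%) and 38 lower (0.374%), so the split went the other way. The extremes of the probes without a symbol were 1.14 and -1.04, with an SD of 0.169.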

How the results depend on the processing

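No paired analysis was possible because each group is 1 array. The quantile-normalised array tables gave the same counts of probes past 0.5 as the matrix, 20 higher and 38 lower, but a BMP target median of -0.12 over 7 members. With normexp the counts past 0.5 were 47 higher and 80 lower, 3 probes were lower by at least 1, and the blood and endothelial median was 0.284. Median scaling gave 81 higher and 21 lower, a median of 0.064 over all members and a naive median of -0.289. It turned the sign of the medians of the core pluripotency (0.07), Nodal (0.032), FGF and ERK (0.005), P-body (0.039), Wnt target (0.005), primitive streak (0.038), endoderm (0.022), trophoblast (0.014), cholesterol synthesis (0.091), amino acid sensing and mTORC1 (0.11), immediate-early and heat shock (0.011) and ribosomal protein (0.053) lists. It also moved the medians of the BMP pathway (0.189), cell cycle (0.18), primed epiblast (0.084), Polycomb (0.079), neuroectoderm (0.111) and DNA methylation (-0.03) lists. Above the 75th percentile of both arrays the naive median was -0.65 over 11 genes, the blood and endothelial one 0.64 over 1 gene, Etv2, and the cholesterol synthesis one 0.06. With no filter on dim probes these were -0.355 and 0.1, the correlation of probe pairs was 0.257, and the Nodal (0.005), 2-cell-like (-0.115) and cell cycle (-0.01) medians changed sign, as did amino acid and ER stress (-0.02) with the mean of a gene's probes. The cause of these moves was not tested. Of 82 values of named genes, 1 changed sign under median scaling (Id2, 0.02) and 0 under normexp or the mean of a gene's probes. The largest move was 0.46, for Mtf2 with the mean of a gene's probes. The other settings could not check these signs. A filter on dim probes leaves the value of a gene's brightest probe as it was, for 61 of the genes with the 75th percentile filter. The quantile-normalised tables moved no named gene by more than 0.01. The medians of members at least 1 lower or higher from mock day 0 to mock day 4, a check chosen after seeing the data, kept their signs, at -0.195 to -0.11 and 0.12 to 0.222. Signal near the background compresses the differences of dim probes, and 1 array per group leaves every difference without an error.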
